A study of Mus musculus with 9 samples.

Results

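The immediate early genes examined here were Fos, Fosb, Jun, Junb, Jund, Egr1, Ier2, Ier3, Atf3 and Dusp1, measured in whole skin of 9 mice. They were chosen by gene name: every probe set annotated to one of the 10 genes was taken, which gave 15 of the 12488 probe sets on the array. None of the 15 was annotated to a further gene. A filter on low signal kept 12 of them, with at least 1 for every gene. The mice were 5 Cd1d knockouts (Cd1d -/-) and 4 wild types (Cd1d +/+) on a C57BL/6 background, matched for age and sex, and none had been exposed to UVB. Each mouse gave 1 RNA sample and 1 Affymetrix MG-U74 array, and the values are MAS5 signals in arbitrary units. Age, sex, skin site, time of day and the order of dissection are not given in the sources used here. The question put to these genes was whether they rise and fall together from mouse to mouse, as they might if mice differed in handling or dissection stress, and whether their levels follow the genotype. No measure of handling, such as time from death to freezing, was at hand, so handling itself was not tested.

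Immediate early genes are switched on within minutes of a stimulus, from signalling kinases and transcription factors that are already in the cell, and their messenger RNAs are short lived. Fos and Jun family proteins pair through leucine zippers to form the AP-1 transcription factors, which in skin take part in wound repair, the response to ultraviolet light and keratinocyte differentiation. Dusp1 encodes a phosphatase that switches off the MAP kinases which induce the group, so it belongs to the same burst and also limits it. Wounding, cell dissociation and the time between death and freezing are well-known triggers of these genes in tissue samples.

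The targeted gene was measured first, as a check of the labels. Cd1d1 signal was 60.3 ± 12.7 (SD, n = 5) in knockouts and 109 ± 16.7 (SD, n = 4) in wild types, without overlap (limma adjusted p = 0.242). The tissue carried strong skin signals, with Krt10, an epidermal keratin, at a mean of 6835 in knockouts and 6333 in wild types and Col1a2, a dermal collagen, at 4640 and 3412. The arrays differed in hair content: the median of 15 hair follicle genes, relative to the mean of all mice on the log2 scale, ran from -1.69 to 2.70 among knockouts and from -1.38 to 0.04 among wild types. The values of 5 arrays (knockouts 1 and 2, wild types 2, 3 and 4) were written with 7 decimals and those of 4 arrays (knockouts 3, 4 and 5, wild type 1) with 9. What lies behind that difference in the deposited tables is not stated.

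Promoter sequences are shown for Fos and Dusp1, the pair that tracked each other most closely in these mice, and for Ier3 and Jund, which went partly with them and against them. Each is the 250 bases before the RefSeq start in GRCm38.p6, written 5′ to 3′ on the gene's own strand, and capitals mark TGACGT, the core of the cAMP response element, on either strand.
Fos, chr12:85473640-85473889 (plus strand): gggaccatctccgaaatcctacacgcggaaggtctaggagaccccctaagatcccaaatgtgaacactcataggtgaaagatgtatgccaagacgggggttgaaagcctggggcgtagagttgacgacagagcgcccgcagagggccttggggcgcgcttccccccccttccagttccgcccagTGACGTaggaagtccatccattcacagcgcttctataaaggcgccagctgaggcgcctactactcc
Dusp1, chr17:26508473-26508722 (minus strand): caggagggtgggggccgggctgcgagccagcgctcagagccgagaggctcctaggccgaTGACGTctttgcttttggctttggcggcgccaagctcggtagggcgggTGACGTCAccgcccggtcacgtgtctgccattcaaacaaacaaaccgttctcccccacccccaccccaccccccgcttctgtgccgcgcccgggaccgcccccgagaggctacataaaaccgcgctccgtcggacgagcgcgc
Ier3, chr17:35821463-35821712 (plus strand): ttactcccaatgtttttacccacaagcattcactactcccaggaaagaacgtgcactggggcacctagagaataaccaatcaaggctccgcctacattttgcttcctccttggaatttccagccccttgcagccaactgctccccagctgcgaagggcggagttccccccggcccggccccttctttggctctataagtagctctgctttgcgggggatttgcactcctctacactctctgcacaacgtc
Jund, chr8:70697489-70697738 (plus strand): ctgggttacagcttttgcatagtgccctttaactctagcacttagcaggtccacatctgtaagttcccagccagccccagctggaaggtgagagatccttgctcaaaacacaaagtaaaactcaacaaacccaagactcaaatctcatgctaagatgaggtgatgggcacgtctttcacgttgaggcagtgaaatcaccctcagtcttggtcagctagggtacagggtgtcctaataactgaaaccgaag

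TGACGT began 66 bases before the start in Fos. The motif of the TATA box, TATAAA, began 33 bases before the start of the same gene. In Dusp1 TGACGT began at 191 and at 143 bases before the start, and the second of these was part of the palindrome TGACGTCA, whose other strand reads TGACGT from 141. The Ier3 and Jund windows held no TGACGT. Of the 8 members whose promoter was searched (Fos, Fosb, Jun, Junb, Jund, Ier3, Atf3 and Dusp1), 3 held TGACGT on either strand, the other one being Atf3 at 8 bases before the start. Egr1 and Ier2 were not searched. Member entries on chromosome 18, where Egr1 lies, were left out, though the background below kept that chromosome. Among all 32851 RefSeq mouse promoters cut the same way, 6.47% held TGACGT, 1.55% held TGACGTCA and 12.4% held TATAAA. The AP-1 site TGANTCA was found in 0 of the 8, against 6.75% of all promoters, and the serum response factor motif called the CArG box in 0 of 8, against 1.47%. These are letter matches in a short window and say nothing about binding.

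The genotype comparison called none of the members. Of the 12 probe sets, 0 passed an adjusted p of 0.05 in limma, where 0.0522% of all 7658 probe sets tested did so (4 probe sets). At an unadjusted p under 0.05 the count was 1 of 12, against 9.4% of all tested. No member probe set separated the genotypes without overlap, against 3.21% of all tested. The knockout mean was lower for 7 and higher for 5, with a median difference of -0.06 on the log2 scale, against 0.0071 over all probe sets tested.

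Fos (160901_at) encodes a highly inducible AP-1 subunit. Its signal was 128, 113, 244, 251 and 295 in knockouts 1 to 5 and 78.7, 88.8, 121 and 245 in wild types 1 to 4. The 9 mice fell into 2 sets, with 5 mice between 78.7 and 128.1 and 4 mice between 243.9 and 294.6, and no mouse in the 1.90-fold gap between them. Knockouts 3, 4 and 5 and wild type 4 made up the high set, so both genotypes were in both sets. The mean was 206 ± 80.6 (SD, n = 5) in knockouts and 133 ± 76.8 (SD, n = 4) in wild types, a log2 difference of 0.68 ± 0.37 (SE, 95% interval -0.13 to 1.48, limma adjusted p = 0.597). Among the arrays with 7 decimals the difference was -0.20, and among those with 9 decimals, which hold a single wild type, it was 1.74. Without wild type 4 it was 1.02. In knockouts the high set was the set with 9 decimals. In wild types the high mouse had 7 decimals and the mouse with 9 decimals had the lowest signal of all.

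Fosb (103990_at), a paralogue of Fos that also needs a Jun partner, did not share this order. Its signal was 170, 163, 306, 137 and 219 in knockouts and 214, 131, 174 and 205 in wild types. Knockout 3 was highest and knockout 4, which was in the high Fos set, was next to lowest, just above wild type 2. The genotypes overlapped (log2 difference 0.11, limma adjusted p = 0.920).

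Jun (100130_at) encodes the classical partner of Fos and was among the steadiest members. Its signal was 107, 113, 137, 98.7 and 115 in knockouts and 147, 152, 144 and 125 in wild types. All knockouts except knockout 3 were below every wild type, and knockout 3 exceeded wild type 4. The mean was 114 ± 14.1 (SD, n = 5) in knockouts and 142 ± 11.5 (SD, n = 4) in wild types, a log2 difference of -0.32 ± 0.14 (SE, 95% interval -0.62 to -0.02). Its limma p was 0.0405 unadjusted and 0.517 adjusted over all probe sets tested. The exact two-sided permutation p was 0.0317. Unadjusted p-values under 0.05 with a lower knockout mean made up 3.96% of all tested.

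Junb encodes a Jun protein with weaker activating power, and its probe sets gave different orders of the mice. Probe set 102362_i_at read 213, 247, 412, 183 and 199 in knockouts and 215, 346, 268 and 231 in wild types, with knockout 3 far above the other knockouts. Probe set 102363_r_at read 298, 260, 226, 241 and 262 in knockouts and 389, 263, 346 and 261 in wild types, with knockout 3 lowest of all. Across the 9 mice their deviations from the genotype means correlated at r = -0.46 (exact permutation p = 0.168). No direction is therefore given for Junb from mouse to mouse, and values below that use it name the second probe set, which had the higher mean signal.

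Jund (102364_at) encodes the Jun protein that resting cells keep, and it is the least stimulus dependent of the family. Its signal was 4058, 4870, 3244, 2983 and 4083 in knockouts and 4497, 4887, 4171 and 3656 in wild types. The lowest mice were knockouts 3 and 4 and wild type 4, all of them in the high Fos set, while knockout 5, also in that set, lay in the middle. The log2 difference between genotypes was -0.18 (limma adjusted p = 0.756).

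Egr1 (98579_at) encodes a zinc finger transcription factor induced through the serum response factor. Its signal was 256, 278, 315, 289 and 354 in knockouts and 248, 129, 362 and 210 in wild types. The knockouts were close together, whereas wild types 2 and 3 held the lowest and highest values of all 9 mice. The log2 difference was 0.42 ± 0.24 (SE, limma adjusted p = 0.625), and it was 0.16 without wild type 2 and 0.65 without wild type 3.

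Atf3 encodes a stress-induced transcription factor that can pair with Jun proteins. Probe set 104155_f_at read 208, 158, 209, 223 and 171 in knockouts and 226, 225, 197 and 234 in wild types (log2 difference -0.20, limma adjusted p = 0.703). Probe set 104156_r_at, which was close to the filter, read 50.9, 56.6, 50.2, 101 and 83.5 in knockouts and 40.8, 59.5, 55.9 and 99.7 in wild types. The first put knockout 5 low and the second put it high, and the pair correlated at r = 0.17 over the 9 mice (exact permutation p = 0.635). The genotypes overlapped in both.

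Ier2 and Ier3 encode small early response proteins, and Ier3 is known for a role in cell survival. Ier2 (99109_at) was the steadiest member by the ratio of the highest to the lowest mouse, at 1.35. It read 392, 398, 452, 508 and 453 in knockouts and 406, 528, 398 and 436 in wild types, with a log2 difference of -0.0008 (limma adjusted p = 0.999). Ier3 (94384_at) read 558, 459, 905, 653 and 654 in knockouts and 617, 754, 667 and 725 in wild types. Knockout 3 was the highest and knockout 2 the lowest of all mice, so the wild types lay inside the knockout range (log2 difference -0.13, limma adjusted p = 0.848).

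Dusp1 (104598_at), the MAP kinase phosphatase, read 659, 620, 1111, 959 and 1032 in knockouts and 638, 772, 852 and 1208 in wild types. Knockouts 1 and 2 and wild type 1 were low, and knockouts 3, 4 and 5 and wild type 4 were the 4 highest, the same mice as in the high Fos set. The genotype means were 876 ± 223 (SD, n = 5) and 867 ± 244 (SD, n = 4), with a log2 difference of 0.01 (95% interval -0.47 to 0.50, limma adjusted p = 0.992).

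**Figure D1:**
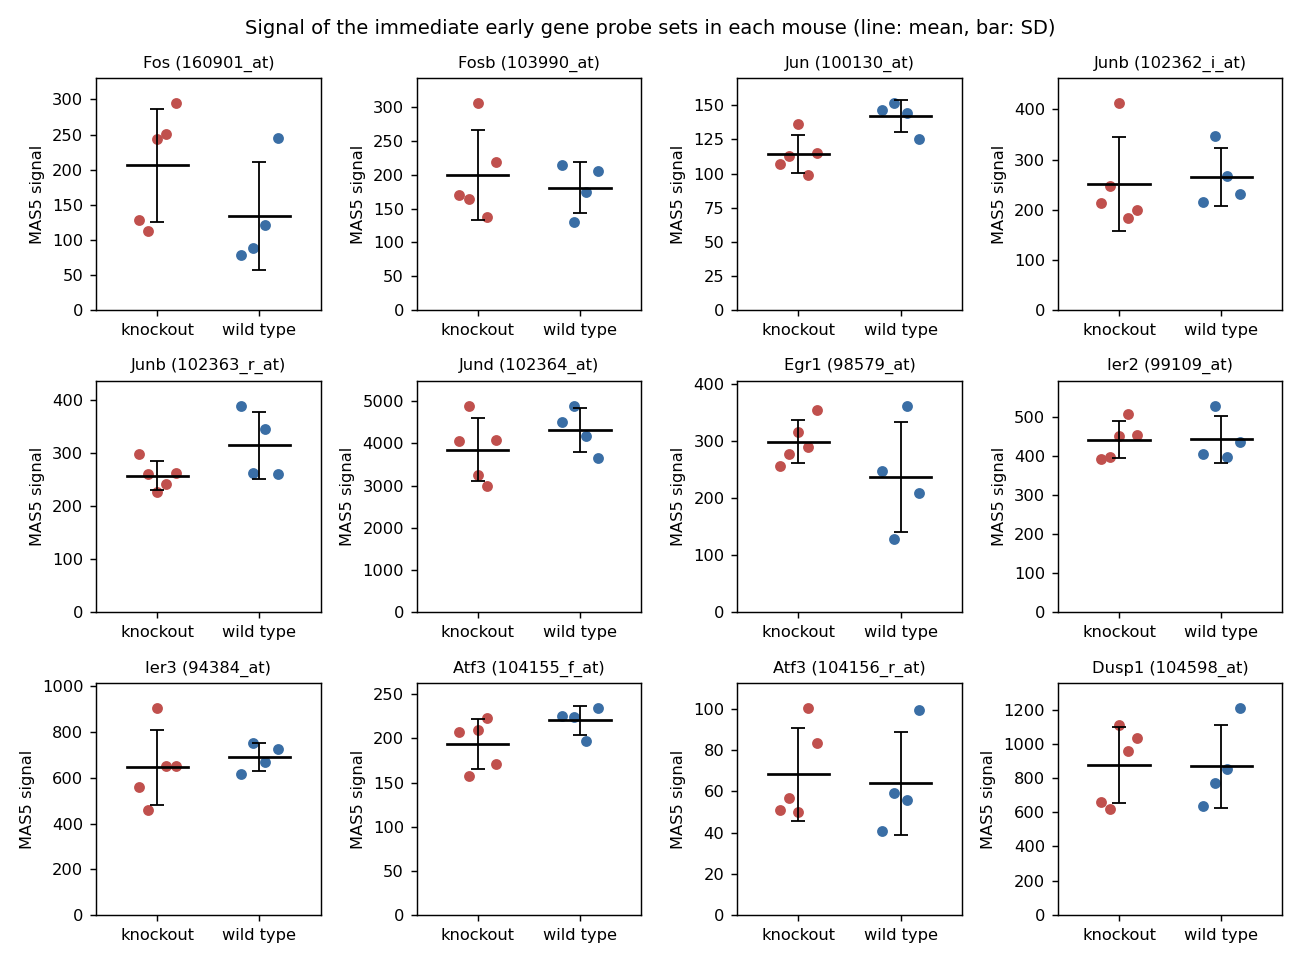
MAS5 signal (arbitrary units, linear axis from 0) of the 12 immediate early gene probe sets that passed the filter, with 1 point per mouse, the genotype mean as a line and the SD as a bar, for 5 knockouts and 4 wild types. The genotypes overlap in every panel, and Fos splits into 5 mice at 78.7 to 128.1 and 4 mice at 243.9 to 294.6.

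The members differed in how much they varied between mice of 1 genotype. Fos had a within-genotype SD of 0.68 on the log2 scale, above 94.9% of all probe sets tested, whose median was 0.27. The second Atf3 probe set (0.49), Egr1 (0.43), the first Junb probe set (0.40), Fosb (0.40) and Dusp1 (0.39) were also above that median. Ier3 was close to it at 0.28. Jund (0.24), the second Junb probe set (0.22), the first Atf3 probe set (0.18), Ier2 (0.17) and Jun (0.15) were below it, and Jun was above only 11.1% of all probe sets tested. The 3 probe sets that failed the filter, 1 each for Fos, Egr1 and Atf3, had signals from 1.4 to 27.8 and are not described further.

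From mouse to mouse the 10 genes did not rise and fall as a block. Each gene was taken as 1 probe set, with 102363_r_at for Junb and 104155_f_at for Atf3. It was expressed as the deviation from its genotype mean and correlated with the other 9 over the 9 mice. Of the 45 pairs, 25 had r above 0 and 20 below, with a median of 0.03 and a range of -0.74 to 0.97. The median over all pairs of the 5855 genes tested was 0.0047, with 50.4% above 0. No pair passed Benjamini-Hochberg adjustment over the 45 by an exact permutation test within genotypes, by Pearson or by Spearman correlation. At an unadjusted exact p under 0.05 there were 5 pairs by Pearson correlation (11.1%) and 4 by Spearman. The background, members against every other gene tested, was 7.24% at that threshold, and 51.2% of those relations had r above 0.

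No mouse had all members high or all low. Knockout 5 had 9 of 10 genes above its genotype mean and knockout 3 had 8, while knockout 2 had 2 and knockout 1 had 3. The remaining 5 mice had 5 or 6 genes above it, and for wild type 4, the mouse with the highest Dusp1, the count was 5. The median deviation over the 10 genes was -0.17, -0.18, 0.20, 0.01 and 0.08 on the log2 scale in knockouts 1 to 5 and 0.05, -0.05, -0.01 and 0.03 in wild types 1 to 4. The spread of these medians was wider in the knockouts, and that difference was not tested. Knockouts 1 and 2, with the negative medians, had values written with 7 decimals, and knockouts 3, 4 and 5 with 9. Among wild types the 1 array with 9 decimals, wild type 1, had the highest median. The part of that difference in the deposited values in these medians was not tested.

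**Figure D2:**
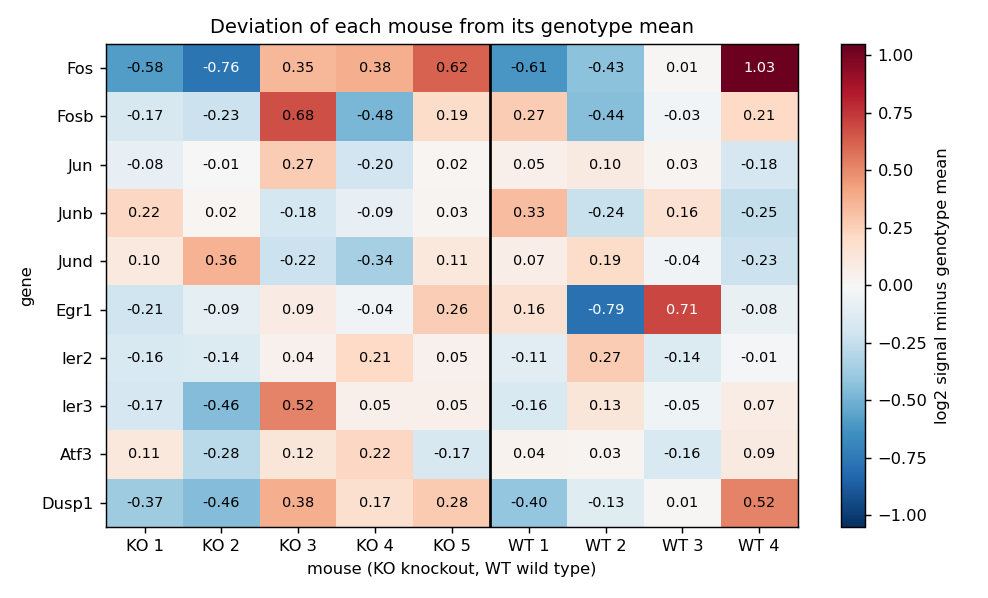
Deviation of each mouse (columns) from its genotype mean for each gene (rows), in log2 signal, 1 probe set per gene, with red above and blue below the mean. Fos and Dusp1 have the same sign in all 9 mice, Jund has the opposite sign to Fos in 8 of 9, and no column has a single colour.

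Fos and Dusp1 were the closest pair. Their deviations had the same sign in all 9 mice and correlated at Pearson r = 0.97 (exact permutation p = 0.00208, 0.0938 after adjustment over the 45 pairs) and Spearman rho = 0.95 (exact permutation p = 0.00278, adjusted 0.125). Leaving out the 2 mice farthest from the median of Fos gave r = 0.97, and leaving out those farthest in Dusp1 gave 0.93. None of the 5845 genes outside the member list had a higher r with Fos than Dusp1 had, and none had a higher r with Dusp1 than Fos had. Without each mouse in turn r lay between 0.96 and 0.99. With the number of decimals fitted beside the genotype it was 0.96, and with the hair follicle median fitted it was 0.97. Without subtracting the genotype means r was 0.85, the lowest of the processing settings tried. Within the high and the low Fos set, of 4 and 5 mice, the relation was not tested.

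Ier3 followed this pair in part. It correlated with Dusp1 at r = 0.76 (exact permutation p = 0.00868, adjusted 0.195) and rho = 0.78 (exact permutation p = 0.0243), and with Fos at r = 0.59 (exact permutation p = 0.0906). Jund ran the other way, at r = -0.73 with Fos (exact permutation p = 0.0483) and -0.74 with Dusp1 (exact permutation p = 0.0479), both 0.378 after adjustment. Its rank correlations were weaker, at rho = -0.62 with Fos and -0.65 with Dusp1. Leaving out the 2 mice farthest from the median of Dusp1 gave 0.75 for Ier3 with Dusp1 and -0.44 for Jund with Dusp1, so the latter leans on those mice. Leaving out the 2 farthest in Fos gave -0.88 for Jund with Fos. Junb (102363_r_at) and Ier3 had r = -0.58 (exact permutation p = 0.0292, adjusted 0.378), but 0.30 when all kept probe sets of a gene were averaged.

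Fos and the AP-1 partner Jun did not move together, at r = -0.24 (exact permutation p = 0.570). Fos and Fosb had r = 0.36, Fos and Egr1 0.26, Fos and Ier2 0.33 and Fos and Atf3 0.27. All had an exact permutation p above that of Fos and Ier3. The Atf3 value used probe set 104155_f_at. The other kept Atf3 probe set, 104156_r_at, was highest in knockouts 4 and 5 and wild type 4, all in the high Fos set. Among knockouts it was lowest in knockout 3, also in that set. No direction is therefore given for Atf3 with Fos. Fosb leaned towards Jun (r = 0.54, exact permutation p = 0.184) more than towards Fos, though that difference was not tested. With the mean profile of all 10 genes, which contains each gene itself, r was 0.87 for Ier3, 0.77 for Fosb, 0.74 for Dusp1 and 0.64 for Fos. It was -0.25 for Junb and -0.58 for Jund.

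**Figure D3:**
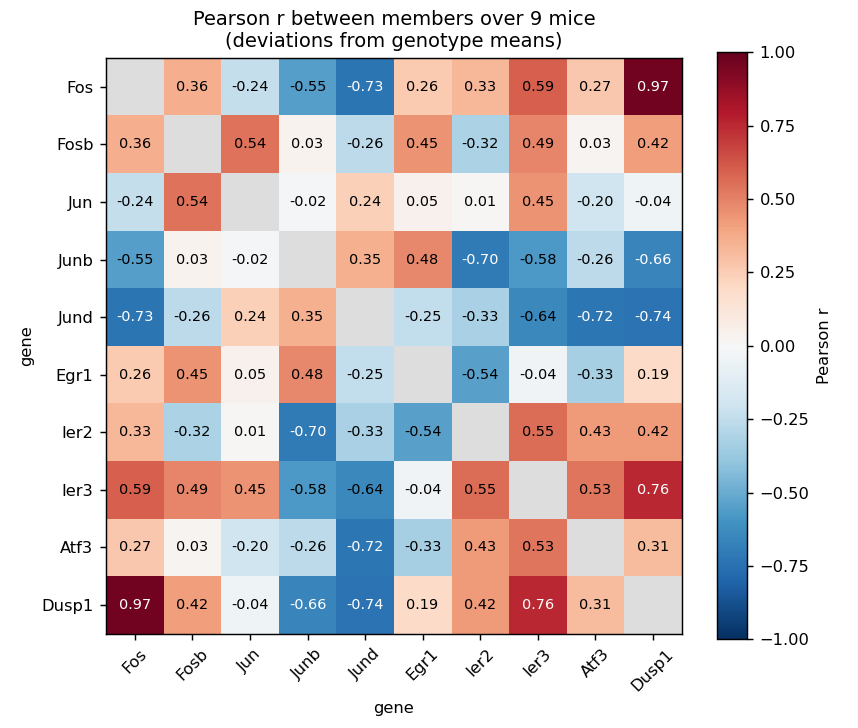
Pearson r between each pair of the 10 genes over 9 mice, on deviations from the genotype means in log2 signal, from -1 (blue) to 1 (red). Junb is read by 102363_r_at and Atf3 by 104155_f_at. The 45 pairs hold 25 positive and 20 negative values, with Fos and Dusp1 at 0.97 and Jund negative against Fos, Ier3, Atf3 and Dusp1.

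**Figure D4:**
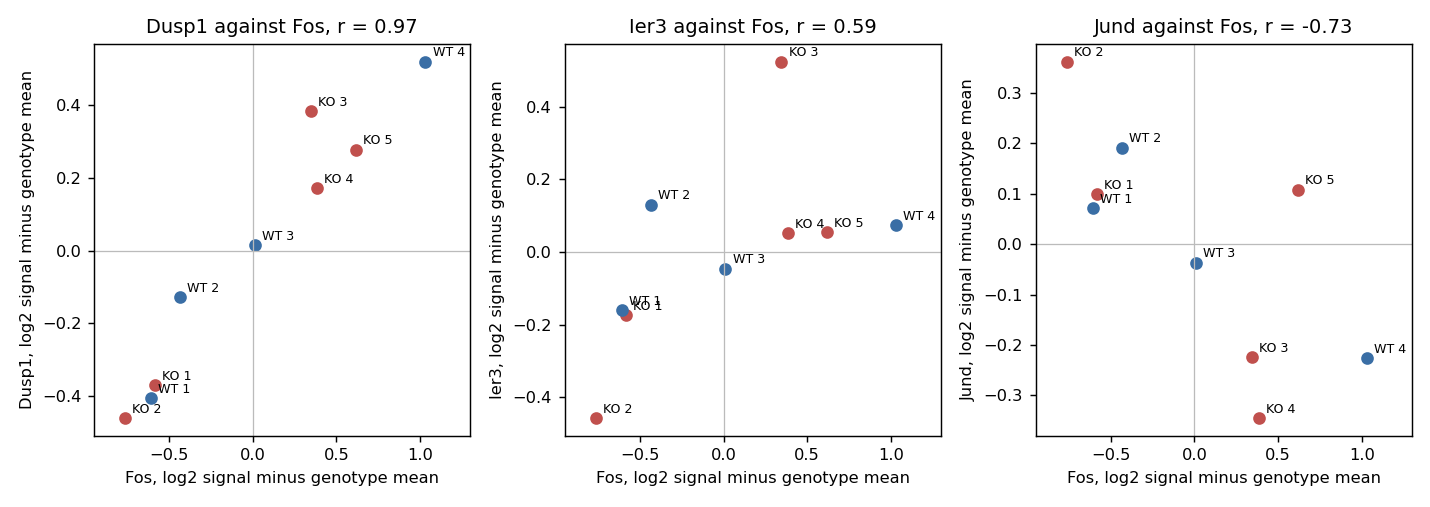
Dusp1, Ier3 and Jund (vertical axes) against Fos (horizontal axis), each as log2 signal minus the genotype mean, with 1 labelled point per mouse (red knockout, blue wild type). Dusp1 has the sign of Fos in all 9 mice, with knockout 3 above knockouts 4 and 5, Ier3 follows with knockout 3 far above the rest, and Jund falls with knockout 5 off the line.

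Other early response genes were then set against Fos, the most variable member. Among the 5845 genes outside the members, 52.8% had r above 0 with Fos, and the median r was 0.04. In that background 3.66% had an unadjusted exact p under 0.05 with r above 0 and 2.41% with r below 0. None of the 5845 passed Benjamini-Hochberg adjustment, and the smallest adjusted p, 0.788, was shared by every gene named below with an unadjusted p under 0.05. Those genes were picked by that p and serve as a description.

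Of 19 other early response transcription factors, 15 had r above 0 with Fos (median 0.41) and 1 an unadjusted p under 0.05. That gene was Cebpd, a factor induced by cytokines and glucocorticoids, at r = 0.87 (exact permutation p = 0.00174) and rho = 0.77. Its signal was 408, 364, 568, 588 and 552 in knockouts and 407, 487, 954 and 1079 in wild types, so knockouts 3, 4 and 5 were above knockouts 1 and 2, and wild types 3 and 4 above wild types 1 and 2. Egr2 (r = 0.67) and Klf4 (r = 0.69), both zinc finger factors, had exact permutation p-values of 0.0830 and 0.0663.

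Of 28 other early response effectors, 22 had r above 0 with Fos (median 0.51). For 5 of these the unadjusted p was under 0.05, as it was for 1 gene with r below 0. Errfi1, a feedback inhibitor of the EGF receptor, had r = 0.89 (exact permutation p = 0.00417) and rho = 0.92. It read 294, 281, 335, 500 and 518 in knockouts and 337, 315, 430 and 540 in wild types, with the high Fos mice at the top in knockouts. Ccn2, a matricellular protein, had r = 0.84 (exact permutation p = 0.00729) and rho = 0.82, and Nfkbiz, Nfkbia and Sgk1 had r = 0.78, 0.74 and 0.73. Odc1, which makes polyamines, went the other way (r = -0.78, exact permutation p = 0.0142). Without the 2 mice farthest from the median of Fos, r was 0.88 for Cebpd, 0.92 for Errfi1, 0.93 for Ccn2 and -0.80 for Odc1.

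The glucocorticoid response genes had the highest median of the 8 related lists. Of 16, 11 had r above 0 with Fos (median 0.54) and 5 an unadjusted p under 0.05, all with r above 0. They were Errfi1 and Sgk1, which are also in the effector list, Fkbp5 (r = 0.84, exact permutation p = 0.0215), Zbtb16 (r = 0.77) and the clock gene Per1 (r = 0.74, exact permutation p = 0.0385). In the same list 5 genes had r below 0, among them Mt2 (r = -0.69, exact permutation p = 0.0764), Lcn2 (r = -0.62, exact permutation p = 0.0778) and Mt1 (r = -0.28). Without the 2 mice farthest in Fos, r was 0.80 for Fkbp5, 0.87 for Zbtb16 and 0.77 for Per1. Per1 read 239, 177, 260, 473 and 262 in knockouts and 147, 137, 380 and 387 in wild types, with knockouts 1 and 2 and wild types 1 and 2 the lowest of their genotypes. Stress hormones and the time of day are known to move several of these genes, and neither was recorded in the sources used here, so their part in the result was not tested.

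Other lists were mixed. AP-1 partners and other bZIP factors had r above 0 with Fos for 9 of 11 (median 0.44), with 1 unadjusted p under 0.05 (Atf2, r = 0.75). The dual specificity phosphatases other than Dusp1 split, with 2 of 4 above 0. Upstream kinases and the serum response factor group had 5 of 11 above 0 (median -0.14), and heat shock genes 6 of 13 (median -0.06), both with 0 unadjusted p-values under 0.05. Hspa1a and Hspa1b, the inducible Hsp70 genes, had r = 0.45 and 0.54 (exact permutation p = 0.229 and 0.167). Of the keratinocyte AP-1 targets 4 of 14 were above 0 (median -0.24), with 1 below 0 at an unadjusted p under 0.05, the cyclin Ccnd1 (r = -0.73).

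**Figure D5:**
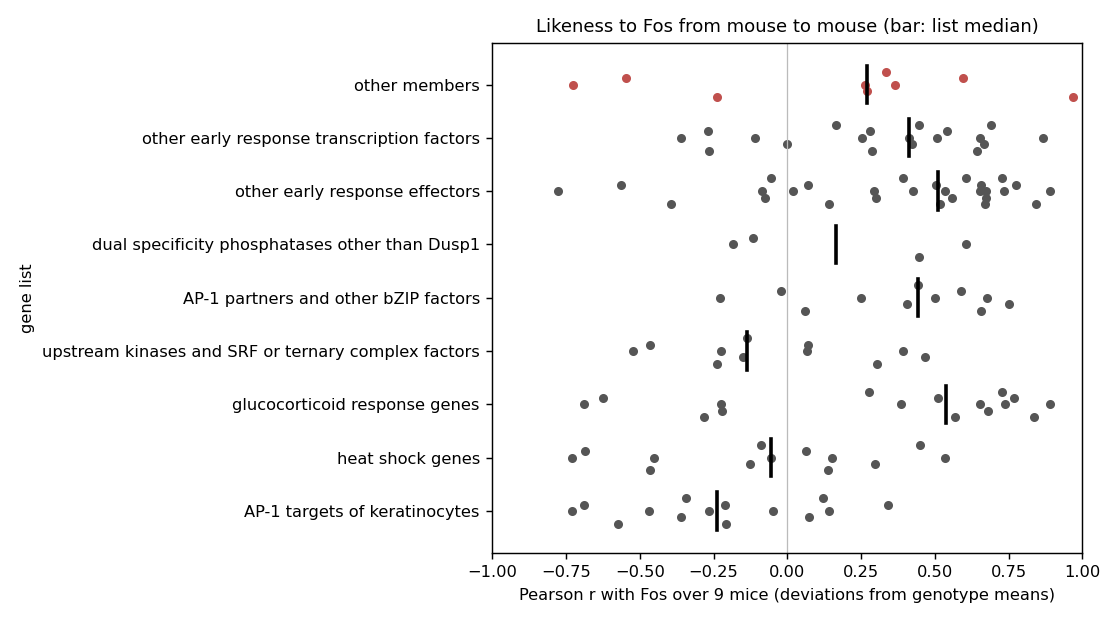
Pearson r with Fos over 9 mice, on deviations from genotype means, for the other 9 immediate early genes (red) and for the genes of 8 related lists (grey), with each list's median as a bar. Medians range from -0.24 for keratinocyte AP-1 targets to 0.54 for glucocorticoid response genes, and every list spreads across 0.

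By genotype, none of these 8 lists held a gene that passed the limma test. Among the early response transcription factors 12 of 19 had a higher knockout mean and 7 a lower one, with a median log2 difference of 0.08. Fosl2, a further Fos family member, had the smallest p of that list at a difference of 0.38 (limma adjusted p = 0.498). Effectors were lower for 17 of 28 (median -0.05), AP-1 partners for 5 of 11 (median 0.05) and upstream kinases for 6 of 11 (median -0.03). Maf, a bZIP factor, differed by 0.73 (limma adjusted p = 0.311). Of the other dual specificity phosphatases 3 of 4 were higher, with Dusp6 at 0.32 (limma adjusted p = 0.531).

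Glucocorticoid response genes had a lower knockout mean for 13 of 16 (median -0.16), against 48.8% of all probe sets tested. Nr3c1, the glucocorticoid receptor gene placed in that list, was higher at 0.86 (limma adjusted p = 0.336), and Fkbp5 was at -0.37. Heat shock genes were lower for 6 of 13 (median 0.05), with Hspd1 at 0.56 (limma adjusted p = 0.363). Keratinocyte AP-1 targets were lower for 9 of 14 (median -0.09), among them Hmox1 at -0.42 (limma adjusted p = 0.379), while Cd44 was at 0.51. The number with an unadjusted p under 0.05 was 5 of 14 for the AP-1 targets and 4 of 13 for heat shock genes, and from 0 to 2 in the other 6 lists, against 9.4% of all probe sets tested.

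The content of the skin samples was set beside the members as list medians per mouse. In such bulk tissue, fewer cells of a type and less RNA per cell cannot be told apart. Over 10 members and 11 measures, 0 of 110 relations passed adjustment (smallest adjusted p 0.153) and 9 (8.18%) had an unadjusted exact p under 0.05, close to the 7.24% of members against every other gene. The relations that follow are a description of those 9. The endothelial list accounted for 5 of the 9. Of its 11 genes 10 passed the filter, and their summed signal was 1730 to 2868 in knockouts and 2289 to 2614 in wild types. Its median correlated with Dusp1 at r = 0.87 (exact permutation p = 0.00590, adjusted 0.280), with Ier3 at 0.87 (exact permutation p = 0.00764) and with Fos at 0.81 (exact permutation p = 0.0139), and with Jund at -0.83. The fifth was Junb by probe set 102363_r_at (-0.64), which gave -0.20 with its probe sets averaged, so no direction is read from it. Without subtracting the genotype means, r with this list was 0.67 for Dusp1, 0.81 for Ier3, 0.24 for Fos and -0.36 for Jund. Without the 2 mice farthest from the median of that list, r was 0.76 for Dusp1, 0.83 for Ier3, 0.59 for Fos and -0.56 for Jund. Single endothelial genes differed. With Fos, 9 of 10 had r above 0, against 52.8% of all genes outside the members. Cdh5, a vessel cadherin, was highest at r = 0.75, Pecam1, a pan-endothelial adhesion molecule, was at 0.15 and Flt1 was lowest at -0.26. The part of endothelial content in the shared movement of Fos, Dusp1 and Ier3 was not tested.

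The other 4 relations involved Jund with the glucocorticoid list (r = -0.74, exact permutation p = 0.00139), Atf3 with hair follicle genes (r = -0.88), Ier2 with heat shock genes (r = 0.76) and Atf3 with epidermal keratinocyte markers (r = 0.71). Without the 2 mice farthest in each list, these were -0.96, -0.60, 0.50 and 0.78. Both Atf3 values used probe set 104155_f_at and were smaller with its probe sets averaged, at -0.44 for hair and 0.52 for epidermal markers. Atf3 with epidermal markers was 0.24 with the hair follicle median fitted and 0.42 after quantile normalisation. Set against Fos gene by gene, hair follicle genes had r above 0 for 1 of 15, skeletal muscle markers for 3 of 17 and dermal fibroblast markers for 1 of 10. Macrophage and dendritic cell markers had it for 15 of 18 and red cell genes for 3 of 4. Among the 5845 genes outside the members the share was 52.8%. By genotype, 2 of 4 red cell genes passed limma, both lower in knockouts, and 0 genes of the other lists of cell content did. Without passing, macrophage and dendritic cell markers had a lower knockout mean for 18 of 18 (median log2 difference -0.35, 10 with an unadjusted limma p under 0.05), endothelial markers for 10 of 10 (median -0.13, 1 such p) and skeletal muscle markers for 15 of 17 (median -0.19, 3 such p-values). Hair follicle genes had a higher one for 15 of 15 (median 1.52, 6 such p-values). Over all probe sets tested, 48.8% had a lower knockout mean and 9.4% an unadjusted limma p under 0.05 in either direction. The part of these lists in the genotype differences of the members was not tested. The ratio of 3′ to 5′ control probe sets, a measure of RNA integrity, was 1.00 to 1.14 for beta actin in knockouts and 1.11 to 1.21 in wild types, with 4 of 5 knockouts below every wild type (exact permutation p = 0.0317, 0.0635 after adjustment over both control genes). For Gapdh it was 0.871 to 0.906 in knockouts and 0.861 to 1.03 in wild types (exact permutation p = 0.413), with wild type 3 the highest. The part of this difference in the genotype comparison of the members was not tested. Within genotypes, over 20 relations of these ratios with the members, the smallest exact permutation p was 0.127.

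Probe sets most like the mean profile of the 10 genes over the 9 mice were sought among 6907 others. Jund (r = -0.58) and Junb (-0.25) ran against that profile, so it does not stand for every member. The probe sets named were picked as extremes, and their r values carry no test. The 10 closest were Irf9 (0.98), Foxc2 (0.95), Ncoa5 (0.94), Rela (0.93), Antkmt (0.92), Zfp110 (0.91), Pomgnt1 (0.91), Baiap2l1 (0.91), Stx7 (0.91) and Tcirg1 (0.91). None of these is an early response gene of the lists used here. Rela, a subunit of NF-κB, read 1005, 1029, 1476, 1048 and 1232 in knockouts and 1558, 1479, 1576 and 1621 in wild types. In knockouts 3 and 5 it was highest among knockouts. Every wild type was above every knockout, though wild type 2 only narrowly exceeded knockout 3. Of all probe sets tested, 3.21% had genotypes without overlap.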

How the data were processed

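Skin RNA from each mouse was hybridised to an Affymetrix MG-U74 array and processed with Microarray Suite 5.0 (MAS5), per the labels. The deposited values are natural log values of the MAS5 signal: their exponentials were multiples of 0.1 (within 0.002) for 100.0% of values, and each array had a 2% trimmed mean signal near 200.1. Signals were converted to log2 without a pseudocount or further scaling. Probe sets were kept at or above the array's 40th percentile (signal 43.4 to 53.3) in at least 4 of 9 arrays, which left 7658 of 12422. Genes came from the platform annotation (10833 probe sets with 1 gene, 396 with several, 1193 with none). Array number limits the precision.

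Genotypes were compared with limma 3.58.1 in R 4.3.3 (lmFit, eBayes with trend, two-sided, Benjamini-Hochberg over all kept probe sets, threshold 0.05). Correlations used the probe set with the highest mean signal per gene, deviations from genotype means, and a two-sided exact permutation test over the 2880 arrangements within genotypes (smallest p 0.000347). Both procedures were tried on simulated data with independent noise between genes. For the correlations a single strongly coupled pair was added, so the power to find weaker shared movement was not measured. Members, lists and tests were chosen with earlier results of these data known. Named genes were the member probe sets, up to 4 genes of each list with the smallest limma p, and the 10 probe sets most like the mean member profile. Genes named for their r with Fos or in the closing section were picked with their values in view, and the genotype test of the control ratios was added after seeing the data. The lists of hair, muscle, adipocyte, epidermal, endothelial, immune and red cell genes served as measures of tissue content, and mast cell, T cell, melanocyte and neutrophil lists (4 kept genes each) had 0 genes past the limma threshold.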

Additional observations from a re-analysis of the deposited data

Results flagged for a closer look

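In 54 groups of 4 or 5 mice, 2 had a mouse set far apart from the others of its genotype by Dixon's criterion, and chance gives about 1 in 20. Junb (102362_i_at) was 412.4 in knockout 3 against 183 to 247 in the other knockouts, a gap of 0.72 of the range. The other Junb probe set was lowest in that mouse, at 226. Per1 was 473.2 in knockout 4 against 177 to 262 in the other knockouts, a gap of 0.711 of the range.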

How the results depend on the processing

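No member passed the limma threshold under any of 22 alternatives (smallest adjusted p 0.366), and no pair passed under those where pairs were counted, though with the decimals fitted or a mouse left out a lone pair could not. The median r over pairs ranged from -0.03 to 0.19. The number of probe sets called, 4, became 7 with a pseudocount of 64, 9 with array weights, 1 with the hair follicle covariate, 10 and 0 within arrays of 7 and 9 decimals, and 4 to 8 without each mouse. The labels state no pairing, so replicate numbers were not used as pairs in the main fit. Same-number correlations were -0.05 to 0.11. They were not set against those of different numbers, so pairing was not tested. With the replicate number as a block 1 probe set was called and the Dusp1 log2 difference was -0.055.

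Several log2 differences changed sign, that of Fos included. Within arrays of 7 decimals, Fos was -0.20, Dusp1 -0.54, Atf3 (104156_r_at) -0.37, Jund 0.079 and Fosb -0.0027. Within 9 decimals, Junb (102362_i_at) was 0.20, Ier3 0.24, Ier2 0.21 and Fosb -0.030. With the decimals as a covariate Fosb was -0.013 and Dusp1 -0.062. With array weights Atf3 (104156_r_at) was -0.0040, Dusp1 -0.080 and Ier2 0.015. With the hair covariate Ier3 was 0.047 and Ier2 0.10, and with median centring Dusp1 was -0.012. Without each mouse in turn, Dusp1 ranged from -0.12 to 0.19, Ier2 from -0.054 to 0.088, Junb (102362_i_at) from -0.32 to 0.016, Atf3 (104156_r_at) from -0.078 to 0.35 and Fosb from -0.064 to 0.22. Junb with Ier3 became r = 0.30 with probe sets averaged. Atf3 with hair genes has no value once hair is fitted. The cause was not tested.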

Other observations

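Single genes outside the lists that followed Fos most closely from mouse to mouse included Tax1bp1 (r = 0.94), Emb (0.91), Usp18 (0.91), Rbl2 (0.90) and Bcl6 (0.88). Bcl6, a transcriptional repressor, read 371, 305, 476, 470 and 429 in knockouts and 330, 324, 476 and 511 in wild types. Mcm3, a subunit of the replicative helicase, ran against Fos at r = -0.94 and read 282, 267, 189, 211 and 194 in knockouts and 257, 218, 201 and 170 in wild types. The mitotic genes Ttk and Kif2c ran against the mean member profile, at r = -0.95 and -0.93. These genes were picked as the extremes of 6907 probe sets, so their r values describe these 9 mice and carry no test.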
